A study of Homo sapiens with 9 samples.

Results

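The transcripts described here encode 10 chemokines that epithelial cells can release or display: CXCL1, CXCL2, CXCL3, CXCL5, CXCL6, CXCL8, CXCL16, CCL20, CCL28 and CX3CL1. They were chosen by symbol from the 60199 symbols of the count table, of which 29997 had at least 1 count, and 7 of the 10 were among the 15717 genes that passed the filter on low counts. Poly-A RNA was sequenced from MCF10A cells, a non-malignant human mammary epithelial line, and from 2 lines derived from it, with 3 libraries from independent cultures of each line. MCF10A-CT (CT) was grown without added BMP2 or IL6 and is labelled not transformed. Both derived lines are labelled transformed and were obtained by long culture with BMP2 and IL6: MC26 from the unsorted population, and M1B26 from the fraction that was sorted on BMPR1B, a receptor for BMP2. The labels give BMP2 at 5 and IL6 at 10 ng per microliter for both lines, while the methods of the study give lower concentrations per volume and the same one for both factors, so the doses used are uncertain. M1B26 was expanded from soft-agar clones, and how the 3 libraries relate to those clones is not given. Any difference between MC26 and M1B26 therefore carries the sorting and the cloning with it, and a library batch that followed the line cannot be told apart from the line.

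Chemokines are small secreted proteins that bind G protein-coupled receptors and draw receptor-bearing cells up a concentration gradient. The CXC ligands with a glutamate-leucine-arginine (ELR) motif, which are CXCL1, CXCL2, CXCL3, CXCL5, CXCL6 and CXCL8, act on CXCR1 or CXCR2 and recruit neutrophils. CCL20 binds CCR6 on dendritic cells and lymphocytes, CCL28 is a mucosal ligand of CCR10 and CCR3, and CXCL16 and CX3CL1 are made as membrane proteins that can be shed, with CXCR6 and CX3CR1 as receptors. Epithelial cells transcribe many of these genes through NF-kB and AP-1, and AU-rich elements in the 3′ untranslated region shorten the life of several of their messenger RNAs.

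The 6 ELR ligand genes lie together on chromosome 4 (GRCh38), where CXCL8 and CXCL2 mark the ends of a stretch of 358.7 kb. Of the annotated genes in this stretch, 13 matched a symbol of the count table. The 150 bases before the start site are printed for 6 members, from RefSeq promoters on GRCh38.p14, because they show which letters the members that differed between lines share and which letters a member near 0 counts shares with them. Capitals mark exact matches, on either strand, to the 10-letter NF-kB consensus, to the AP-1 pattern TGANTCA, or to the letters GGAATTTCC. The last pattern lies inside the CXC matches to the NF-kB consensus and was added after those matches were seen.
CXCL1, chr4:73869243-73869392, plus strand: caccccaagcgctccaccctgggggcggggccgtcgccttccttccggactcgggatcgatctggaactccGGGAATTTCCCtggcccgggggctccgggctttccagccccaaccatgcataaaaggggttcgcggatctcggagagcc
CXCL3, chr4:74038690-74038839, minus strand: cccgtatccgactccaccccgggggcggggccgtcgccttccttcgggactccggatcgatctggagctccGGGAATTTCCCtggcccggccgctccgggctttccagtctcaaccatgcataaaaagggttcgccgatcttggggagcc
CXCL2, chr4:74099196-74099345, minus strand: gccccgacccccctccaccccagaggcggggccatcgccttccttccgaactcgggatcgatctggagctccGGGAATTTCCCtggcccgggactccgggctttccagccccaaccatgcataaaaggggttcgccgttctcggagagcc
CXCL5, chr4:73998678-73998827, minus strand: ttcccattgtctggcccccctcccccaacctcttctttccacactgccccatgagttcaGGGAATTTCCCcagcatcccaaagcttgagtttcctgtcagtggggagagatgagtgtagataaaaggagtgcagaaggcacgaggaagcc
CXCL8, chr4:73740419-73740568, plus strand: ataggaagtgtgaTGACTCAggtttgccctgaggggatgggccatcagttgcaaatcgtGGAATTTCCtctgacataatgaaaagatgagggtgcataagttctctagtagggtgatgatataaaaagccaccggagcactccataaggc
CCL20, chr2:227813692-227813841, plus strand: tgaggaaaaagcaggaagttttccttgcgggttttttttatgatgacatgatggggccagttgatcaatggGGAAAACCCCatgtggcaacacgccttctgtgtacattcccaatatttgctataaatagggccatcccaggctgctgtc

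CXCL1, CXCL2, CXCL3, CXCL5 and CXCL6 held the same run of capitals, a pair of overlapping consensus matches on opposite strands, with the match on the gene's own strand starting 79 bases before the start site in CXCL1 and CXCL3 and 78 before it in CXCL2. In CXCL5 and CXCL6 it started 91 and 90 bases before it. The CXCL8 window had no match to the full consensus but held GGAATTTCC from 91 bases before the start, and an AP-1 match from 137 bases before it. The CCL20 match stood on the opposite strand, 79 to 70 bases before the start. Among all 35116 promoter windows of 300 bases (250 before and 50 after the start), 11.3% held the NF-kB consensus, 7.71% the AP-1 pattern and 0.461% GGAATTTCC. Neither CCL28 window held any of these patterns. A window was found for 8 of the 10 members, and none for CXCL16 and CX3CL1, whose promoters were not searched. Set side by side without gaps and with a shift of at most 3 bases, the printed stretches of CXCL1 and CXCL3 were identical at 86.0% of positions, and those of CXCL1 and CXCL2 at 67.1%. The CXCL5 stretch and that of CXCL6, which is not printed, were identical at 90.6%. CXCL1 and CXCL5 were identical at 35.4%. These matches describe letters and were not tested as binding sites.

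The 3′ untranslated regions are the other place where these genes share letters. Windows of 30 bases are printed for the 4 ELR ligands that passed the filter, each the first window of its region with the most ATTTA. Chosen in the same way, the CCL28 window held 4 ATTTA and that of CCL20 held 1, and these are not printed. The printed windows were taken from the GRCh38 genome at the canonical GENCODE v44 transcripts, with ATTTA, the core of AU-rich elements, in capitals.
CXCL1, chr4:73870665-73870694, plus strand: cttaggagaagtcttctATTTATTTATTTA
CXCL2, chr4:74097590-74097619, minus strand: aagtcttctATTTATTTATTTATTTATTTA
CXCL3, chr4:74037090-74037119, minus strand: ttacgagggttctacttATTTAtgtATTTA
CXCL8, chr4:73743108-73743137, plus strand: taacctATTTAttATTTAtgtATTTATTTA

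In its whole 3′ untranslated region CXCL2 held 10 ATTTA in 719 bases, CXCL1 6 in 775, CXCL3 7 in 676 and CXCL8 9 in 1255. CCL20 held 3 in 476 bases. Per kilobase these 5 members ran from 6.303 (CCL20) to 13.908 (CXCL2), against a median of 1.631 over 18531 genes. CXCL5 (5.506) and CXCL6 (5.348) were also above that median, CCL28 had 2.622, and CXCL16 (1.028) and CX3CL1 (0.993) were below it. The CXC family shares further sequence: of 50-base windows of the transcripts, 5.3% of those of CXCL1 occurred in CXCL2 and 5.1% of those of CXCL2 in CXCL3, whereas 0.5% of those of CXCL1 occurred in CXCL3. How the authors counted reads with several alignments is not given in the sources used here, so a small part of the reads of these 3 genes may be assigned to the wrong one.

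Total counts ran from 21425118 to 80076597 per library, and a floor of 3 counts stood for 0.0366 to 0.131 CPM (read counts scaled to library size with TMM factors). All 12 mammary epithelial markers checked, keratins, cadherin and integrins among them, had over 3 counts in every library. MC26 replicates 1 and 3 stood farthest apart of the libraries of a line, with a difference of at least 2-fold at 137 of 10637 genes against 2 to 37 genes in the other pairs.

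CXCL1, the ELR ligand with the highest level per kilobase in each line, separated the 3 lines completely. It was at 29.2, 31.6 and 29.5 CPM in the CT libraries, at 38.6, 66.2 and 81.9 CPM in MC26 and at 221, 204 and 239 CPM in M1B26. No library of one line reached the range of another, and the MC26 libraries spread 2.12-fold among themselves against 1.08-fold in CT. The mean rose 2.07-fold from CT to MC26 (log2 fold change 1.05, SE 0.20, adjusted p = 0.00227 by edgeR's quasi-likelihood test with Benjamini-Hochberg adjustment) and 7.36-fold from CT to M1B26 (log2 fold change 2.88, SE 0.21, adjusted p = 2.33e-06). The difference between the derived lines was itself tested: CXCL1 was 3.55-fold higher in M1B26 than in MC26 (adjusted p = 8.03e-05).

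CXCL2, which lies at the far end of the same cluster and acts on CXCR2, had 6.95, 6.29 and 5.75 CPM in CT, 8.93, 10.7 and 9.46 CPM in MC26, and 24.6, 23.2 and 27.9 CPM in M1B26. The order of the lines was that of CXCL1 and the ranges again did not overlap, but the step to MC26 was smaller. CXCL2 rose 1.53-fold in MC26 (log2 fold change 0.62, SE 0.11, adjusted p = 0.00156 by edgeR) and 3.99-fold in M1B26 (log2 fold change 2.0, SE 0.11, adjusted p = 4.02e-07), and the derived lines differed 2.60-fold (adjusted p = 8.28e-06).

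CXCL3, another CXCR2 ligand, had the lowest level per kilobase of the 7 members in CT and the highest fold changes from it. Its CPM were 1.43, 1.0 and 1.37 in CT, 9.95, 11.8 and 7.67 in MC26, and 16.8, 19.0 and 18.2 in M1B26. Of the 5 members that rose in both lines, it had the smallest difference between MC26 and M1B26, and its 3 ranges did not overlap. CXCL3 rose 7.43-fold in MC26 (log2 fold change 2.89, SE 0.17, adjusted p = 1.02e-06 by edgeR), 13.7-fold in M1B26 (3.77, SE 0.17, adjusted p = 1.23e-07), and differed 1.84-fold between them (adjusted p = 0.000971). With CXCL1, CXCL2 and CXCL3 counted as 1 summed row, an alternative added after the data were seen, the log2 fold changes were 1.12 in MC26 and 2.81 in M1B26, near those of CXCL1, which had 44096 counts over the 9 libraries against 5853 for CXCL2 and 3948 for CXCL3.

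CXCL8, interleukin-8, which acts on CXCR1 and CXCR2, had 3.93, 4.67 and 3.88 CPM in CT, 5.05, 7.40 and 8.45 CPM in MC26, and 21.7, 24.6 and 26 CPM in M1B26. MC26 replicate 1 stood nearest to CT, above its highest library, and all 3 M1B26 libraries were above every other library. CXCL8 rose 1.70-fold in MC26 (log2 fold change 0.77, SE 0.17, adjusted p = 0.00502 by edgeR) and 5.88-fold in M1B26 (2.56, SE 0.17, adjusted p = 1.16e-06). M1B26 was 3.46-fold above MC26 (adjusted p = 2.02e-05).

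The remaining ELR ligands, CXCL5 and CXCL6, were at or near 0. CXCL6 had 0 counts in all 9 libraries, and CXCL5 had at most 2 counts in a library and totals of 3, 2 and 0 in CT, MC26 and M1B26. Both lie in the cluster between CXCL8 and CXCL3, and both hold the promoter letters printed above, which CXCL1, CXCL2 and CXCL3 share. Of the 9 protein-coding genes of the stretch, 5 passed the filter: the 4 ligands above and PF4, a platelet chemokine named here after its values were seen. PF4 had 8, 0 and 12 counts in CT, 43, 19 and 11 in MC26, and 13, 11 and 19 in M1B26, and it rose in MC26 (log2 fold change 2.43, SE 0.58, adjusted p = 0.00728 by edgeR). In M1B26 its log2 fold change was 1.44 (adjusted p = 0.0769), and the difference between the derived lines did not pass (adjusted p = 0.148). The median log2 fold change of the 528 tested genes of chromosome 4 was 0.01 in MC26 and -0.03 in M1B26 against CT.

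**Figure D1:**
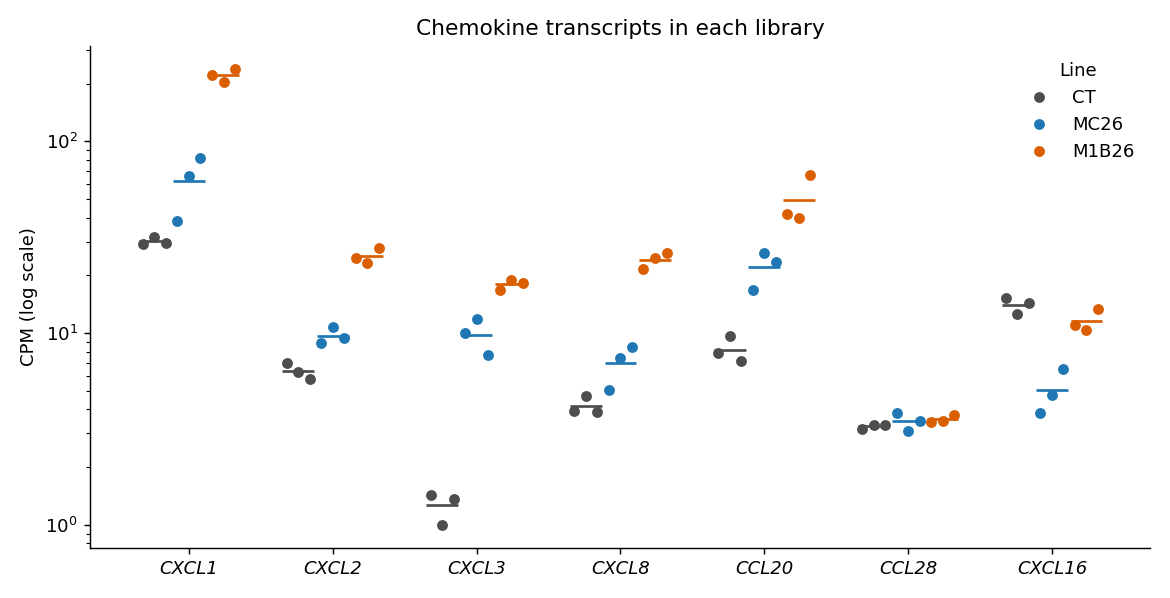
CPM (log scale) of the 7 chemokines that passed the filter, with a point for each of the 3 libraries of CT (grey), MC26 (blue) and M1B26 (orange) and a bar at the mean. CXCL1, CXCL2, CXCL3, CXCL8 and CCL20 step up from CT to MC26 to M1B26 without overlap, CCL28 stays between 3.09 and 3.83 CPM, and CXCL16 is lowest in MC26.

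CCL20, the ligand of CCR6, lies on chromosome 2 and moved as the ELR ligands did. It had 7.83, 9.61 and 7.15 CPM in CT, 16.8, 26 and 23.4 CPM in MC26, and 41.9, 39.8 and 67.1 CPM in M1B26. The ranges did not overlap, and M1B26 replicate 3 stood 1.69-fold above replicate 2. CCL20 rose 2.74-fold in MC26 (log2 fold change 1.45, SE 0.22, adjusted p = 0.000504 by edgeR) and 6.16-fold in M1B26 (2.62, SE 0.22, adjusted p = 6.17e-06), with M1B26 2.25-fold above MC26 (adjusted p = 0.00142).

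CCL28, a mucosal chemokine encoded on chromosome 5, showed no difference that passed the test. It had 3.16, 3.32 and 3.33 CPM in CT, 3.83, 3.09 and 3.46 CPM in MC26, and 3.45, 3.5 and 3.75 CPM in M1B26. The M1B26 libraries were all above the CT libraries, and the MC26 libraries spanned both. The 95% intervals of its log2 fold changes were -0.20 to 0.36 for MC26 against CT (adjusted p = 0.636 by edgeR), -0.15 to 0.40 for M1B26 against CT (adjusted p = 0.425) and -0.23 to 0.32 between the derived lines (adjusted p = 0.801).

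CXCL16, a membrane-bound chemokine that also serves as a scavenger receptor, went the other way in MC26. It had 15.3, 12.5 and 14.4 CPM in CT, 3.83, 4.76 and 6.47 CPM in MC26, and 11, 10.4 and 13.3 CPM in M1B26. All MC26 libraries lay below every other library, whereas the M1B26 and CT ranges overlapped. CXCL16 fell by 1.49 on the log2 scale in MC26 (SE 0.17, adjusted p = 7.92e-05 by edgeR), 2.81-fold below CT. Against M1B26 the difference was 2.30-fold (log2 fold change 1.20, adjusted p = 0.000414), and between M1B26 and CT the log2 fold change was -0.29 (95% interval -0.65 to 0.07, adjusted p = 0.165). Its exons share 76 bases with MED11 and 96 bases with ZMYND15 on the opposite strand, and since strand use in the counting is not given, reads in those bases cannot be assigned with certainty. CX3CL1, the other membrane-bound member, had 2 counts in CT replicate 3 and 0 in the other 8 libraries.

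**Figure D2:**
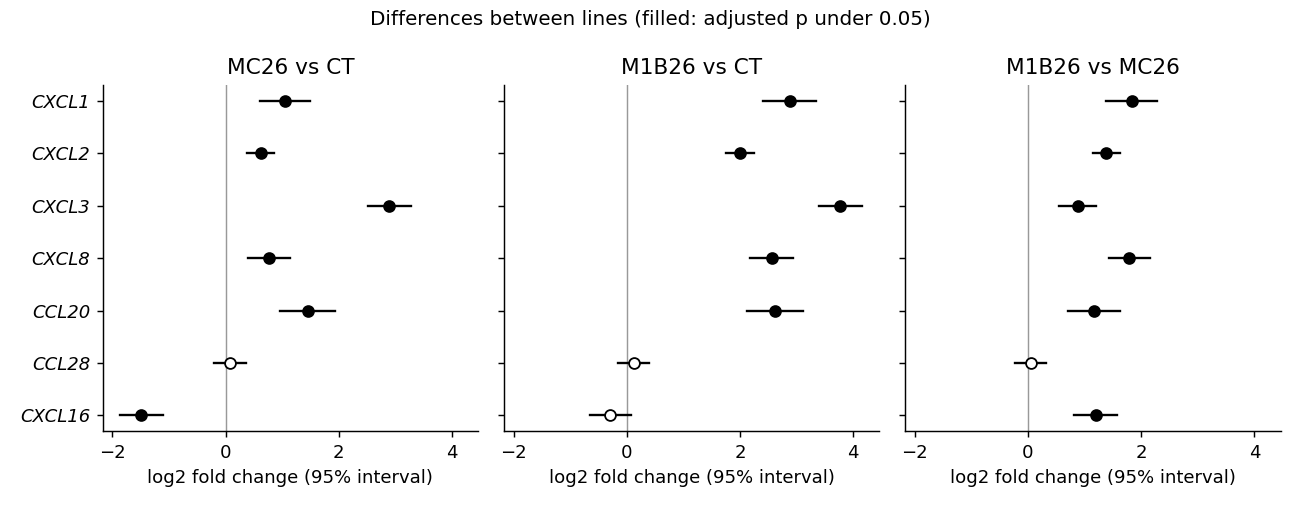
Log2 fold change (horizontal axis) with its 95% interval for the 7 chemokines in each of the 3 comparisons, filled where the adjusted p was under 0.05. In both comparisons with CT, the 4 ELR ligands and CCL20 lie to the right of 0, CCL28 lies on 0, and CXCL16 lies at -1.49 in MC26 and at -0.29 in M1B26.

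In counts, 5 of the 7 members that passed the filter rose and 1 fell in MC26 against CT. Of all tested genes 18.8% rose and 19.9% fell in that comparison. In M1B26 against CT 5 rose and none of the 7 fell, by edgeR, where 25.2% of tested genes rose and 23.7% fell. CXCL16 and CCL28 were the uncalled members there, with unadjusted p of 0.104 and 0.33, and DESeq2 called 5 higher and 0 lower as well. In M1B26 against MC26, 6 of 7 rose, against 21.2% of tested genes that rose and 18.4% that fell. The CPM ranges of the lines did not overlap for 6 of 7 members in each comparison, whereas 50.3%, 59.0% and 53.5% of tested genes had no overlap in the same order. The counts of members called were the same with any 1 of the 9 libraries left out, whereas the overlap of ranges was counted only with all libraries. The comparisons with CT use the same CT libraries, so they are not independent of each other. Without scaling factors the members' calls were as given, while the share of called genes that were higher went from 48.5% to 35.8% in MC26 and from 51.5% to 39.6% in M1B26.

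Levels of different chemokines were compared per kilobase of exonic length, which merges all annotated exons of a gene. That length was 2.219 kb for CXCL3 and 1.362 kb for CXCL1. Their longest protein-coding transcripts were closer in length, with 1026 and 1125 windows of 50 bases. Ranks and shares per kilobase, those of CXCL3 above all, could therefore differ with transcript lengths, which were not used. CXCL1 was highest in every line, at 22.1 ± 0.971 CPM per kilobase in the CT libraries, 45.7 ± 16.1 in those of MC26 and 162 ± 12.8 in those of M1B26 (SD, n = 3). CCL20 was second in every line, at 5.14 ± 0.797, 13.8 ± 2.98 and 31.1 ± 9.53 CPM per kilobase (SD, n = 3). In CT, CXCL16 (5.04 ± 0.518) and CXCL2 (4.53 ± 0.429) lay within 1 SD of CCL20, followed by CXCL8 (1.61 ± 0.172), CCL28 (0.723 ± 0.0214) and CXCL3 (0.571 ± 0.103).
In MC26 the order in level per kilobase after CCL20 was CXCL2 (6.93 ± 0.649), CXCL3 (4.42 ± 0.936), CXCL8 (2.69 ± 0.673), CXCL16 (1.8 ± 0.48) and CCL28 (0.764 ± 0.0822). By these exonic lengths CXCL3 thus moved from the lowest place in CT to rank 4. In M1B26, CXCL2 (18.0 ± 1.73), CXCL8 (9.32 ± 0.848) and CXCL3 (8.12 ± 0.503) followed CCL20, with CXCL16 at 4.14 ± 0.543 and CCL28 at 0.788 ± 0.0353 CPM per kilobase. CXCL16 stood at rank 3 in CT and at rank 6 in both derived lines.

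The sum over the 7 members was 39.7 ± 1.48 CPM per kilobase in the CT libraries, 76.1 ± 19.7 in those of MC26 and 234 ± 24.6 in those of M1B26 (SD, n = 3). CXCL1 made up 55.7% ± 1.38 of this sum in CT, 58.9% ± 6.63 of it in MC26 and 69.6% ± 2.22 of it in M1B26 (SD, n = 3). CXCL16 gave 12.7% ± 1.63 of the sum in CT, 2.38% ± 0.283 in MC26 and 1.76% ± 0.0453 in M1B26, so that its share in M1B26 was low although its level there overlapped with CT. CXCL3 made up 1.44% ± 0.299, 6.17% ± 2.28 and 3.5% ± 0.455 in the same order.

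**Figure D3:**
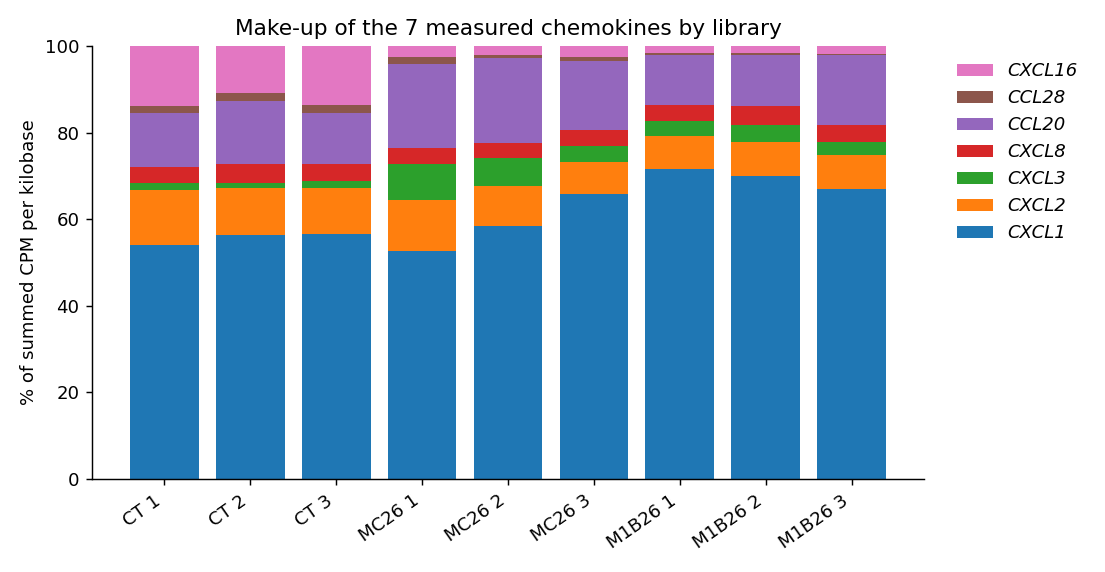
Share (%) of the summed CPM per kilobase of the 7 chemokines taken by each of them, with a stacked bar per library. CXCL1 takes more than any other member in each library, from 52.6% to 71.5%, and CXCL16 takes 10.9% to 13.8% in CT and at most 2.54% in the other lines.

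Ratios of CPM within a library show the uneven steps of the neighbouring genes. CXCL3 stood at 4.89%, 3.18% and 4.64% of the CXCL1 CPM in CT, at 25.8%, 17.8% and 9.37% in MC26 and at 7.62%, 9.33% and 7.61% in M1B26. The MC26 ratios spread widely, and their lowest lay just above the highest of M1B26. Relative to CXCL2, CXCL3 stood at 20.1% ± 3.92 in CT, at 101% ± 17.3 in MC26 and at 71.9% ± 8.9 in M1B26 (SD, n = 3). Exact permutation tests (two-sided) gave p = 0.1 for both ratios in MC26 against CT, which is the smallest p that 3 libraries against 3 allow, and 0.15 after adjustment over the 12 ratio tests made. CXCL8 relative to CXCL1 stayed nearer to its CT value of 13.8% ± 0.861, at 11.5% ± 1.42 in MC26 and 10.9% ± 1.12 in M1B26 (n = 3), with exact permutation p = 0.1 and adjusted 0.15 for each derived line against CT.

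CXCL16 lies on chromosome 17, whose 843 tested genes had a median log2 fold change of 0.00 in MC26 and 0.48 in M1B26 against CT. In M1B26 the CXCL16 value of -0.29 was 0.77 below that median, and 8.54% of the chromosome's tested genes had a lower value. In MC26 its -1.49 was 1.49 below the median, with 4.74% of the genes lower. Between M1B26 and MC26 the chromosome median was 0.48 and CXCL16 stood 0.72 above it. CCR10, CCL2, RHBDF2, COL1A1 and CD68, which are named below, also lie on chromosome 17. Their log2 fold changes in M1B26 against CT were 1.90, 2.22, 1.01, 0.98 and 1.56, beside the chromosome median of 0.48. Whether the shift of the chromosome has a part in the levels of CXCL16 or of these genes was not tested.

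**Figure D4:**
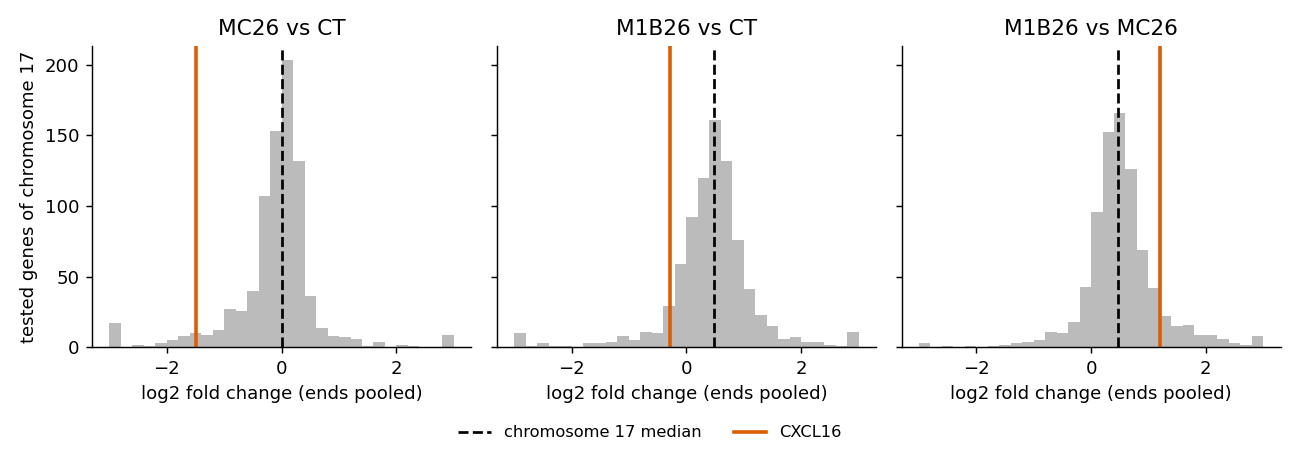
Number of tested chromosome 17 genes (vertical axis) by log2 fold change (horizontal axis, values beyond 3 pooled in the end bins) in the 3 comparisons, with the chromosome median dashed and CXCL16 in orange. CXCL16 lies left of the median in both comparisons with CT and right of it between M1B26 and MC26, where the median itself is at 0.48.

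Few receptors for these ligands were transcribed in the cells. CXCR1, a receptor of CXCL8 and CXCL6, had 68, 14 and 49 counts in the CT libraries, 7, 5 and 3 in MC26 and 3, 6 and 16 in M1B26. In CPM these are 0.598 to 0.972 in CT against at most 0.295 in the derived lines, so the ranges did not overlap. CXCR1 fell by 2.55 on the log2 scale in MC26 (SE 0.47, adjusted p = 0.00169 by edgeR). In M1B26 it fell by 2.07 (SE 0.43, adjusted p = 0.00242), opposite in direction to CXCL8. CXCR2, which binds all 6 ELR ligands, had 14, 5 and 10 counts in CT and at most 2 in any library of the derived lines, and did not pass the filter.

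CCR10, a receptor of CCL28, had 12, 1 and 8 counts in CT, 2, 4 and 8 in MC26 and 11, 19 and 34 in M1B26, and rose in M1B26 (log2 fold change 1.90, SE 0.49, adjusted p = 0.00791 by edgeR). CCR3, the other receptor of CCL28, had at most 9 counts in a library. CCR6 and CXCR6, the receptors of CCL20 and CXCL16, had 0 counts in all 9 libraries, and CX3CR1 had 3 counts in all. Among the 23 receptors listed, 5 passed the filter. In MC26 3 of them fell by edgeR (CXCR1, CXCR4 and ACKR3) and 0 rose, where 19.9% of tested genes fell and 18.8% rose. ACKR1 and CCR10 were not called there, with log2 fold changes of -0.93 (SE 0.72) and -0.03 (SE 0.61). In M1B26 1 receptor rose and 2 fell, where 25.2% of tested genes rose and 23.7% fell.
CXCR4, the receptor of CXCL12, is outside the naming rule and was picked out after its values were seen. It had 135, 38 and 150 counts in CT and at most 1 count in each of the 6 libraries of the derived lines. Against a floor of 3 counts per library it was at least 24.2-fold lower in MC26 and at least 27.9-fold lower in M1B26 than its mean of 1.81 CPM in CT. The atypical receptor ACKR3, also named after its values were seen, fell in MC26 (log2 fold change -1.37, adjusted p = 0.0172 by edgeR) and did not pass in M1B26 (0.18, adjusted p = 0.667).

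Of 34 other chemokine ligands, 16 had 0 counts in every library and 2 passed the filter. These were PF4, given above, and CCL2, a monocyte attractant also named after its values were seen. CCL2 had 28, 2 and 24 counts in CT, 6, 3 and 13 in MC26, and 62, 48 and 87 in M1B26. It rose in M1B26 against CT (log2 fold change 2.22, SE 0.38, adjusted p = 0.000744 by edgeR) and had a log2 fold change of -0.70 in MC26 (adjusted p = 0.29). CXCL10 and CXCL11, ligands of CXCR3 induced by interferon, had at most 4 counts in any library and were also picked out after their values were seen.

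Proteases that release or trim chemokines were listed together with TIMP3, RHBDF1 and RHBDF2, which are not proteases, and the list was mixed. Of 11 tested among 17 listed, 3 rose and 2 fell in MC26, against 18.8% and 19.9% of all tested genes. In M1B26 5 rose and 2 fell, against 25.2% and 23.7% of all tested genes. Their median log2 fold changes were 0.13 and 0.15 against 0.00 over all tested genes in both. ADAM10 and ADAM17, which shed CXCL16 and CX3CL1, had 99.0 and 45.3 CPM in CT. ADAM10 did not pass the test against CT in either line (0.14 and -0.11 on the log2 scale, adjusted p = 0.218 and 0.295 by edgeR), and ADAM17 rose in M1B26 by 0.26 (adjusted p = 0.0144).
RHBDF2, which encodes iRhom2, a partner that carries ADAM17 to the cell surface, rose in M1B26 (1.01, SE 0.13, adjusted p = 0.000125 by edgeR). TIMP3, an inhibitor of ADAM17 and of matrix metalloproteinases, fell by 0.50 in MC26, and in M1B26 it fell by 1.99 (adjusted p = 0.00138 and 1.23e-07). MMP14, a membrane-bound metalloproteinase, rose by 1.35 in MC26 (adjusted p = 3.36e-06), and MMP2, a gelatinase that cleaves chemokines, fell by 0.75 and by 1.59 (adjusted p = 0.0149 and 0.000146).

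Chemokines are held at cell surfaces by heparan sulfate. All 16 listed genes of its core proteins and modifying enzymes passed the filter, with medians of 0.20 and -0.06 on the log2 scale. In MC26 6 rose and 3 fell, against 18.8% and 19.9% of all tested genes. In M1B26 5 rose and 2 fell, against 25.2% and 23.7% of all tested genes. SULF2, which removes sulfate groups from heparan sulfate, fell by 1.46 in MC26, and in M1B26 it fell by 1.80 (adjusted p = 0.000479 and 8.02e-05 by edgeR). SDC1, encoding the proteoglycan syndecan-1, rose by 0.74 and 0.59 (adjusted p = 0.000233 and 0.000638).

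Genes that act on AU-rich or stem-loop messages were tested in full, 12 of 12, with medians of 0.15 and -0.02. In MC26 6 rose and 1 fell, against 18.8% and 19.9% of all tested genes. In M1B26 3 rose and 2 fell, against 25.2% and 23.7% of all tested genes. ZC3H12A, which encodes the nuclease regnase-1, had 53.5, 46.0 and 49.4 CPM in CT, 71.0, 109 and 118 in MC26 and 146, 125 and 170 in M1B26. It rose by 0.99 and 1.56 on the log2 scale (adjusted p = 0.000973 and 3.27e-05 by edgeR), in the same direction as the ELR ligands. ZFP36 and ZFP36L1, which bind ATTTA elements and promote decay, rose by 0.64 and 0.87 in MC26, and in M1B26 they rose by 0.54 and 0.79 (adjusted p = 0.00412, 6.03e-05, 0.00756 and 7.87e-05). ZFP36L2, of the same family, fell by 0.59 in MC26 (adjusted p = 0.000638) and had a log2 fold change of -0.16 in M1B26 (adjusted p = 0.189). Message stability was not measured.

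Among 23 listed cytokines and receptors that can induce these chemokines, 16 were tested. In MC26 9 rose and 3 fell, against 18.8% and 19.9% of all tested genes. In M1B26 6 rose and 2 fell, against 25.2% and 23.7% of all tested genes. The medians were 0.29 and 0.19 on the log2 scale. IL1B, an inducer of CXCL8 and CCL20 in epithelial cells, had 15.5, 14.3 and 13.7 CPM in CT, 94.7, 115 and 75.2 in MC26, and 248, 202 and 305 in M1B26. Its lines did not overlap and followed the order of CXCL1, with log2 fold changes of 2.71 in MC26 and 4.12 in M1B26 (SE 0.18 in both, adjusted p = 1.54e-06 and 1.06e-07 by edgeR).
IL1A, which signals through the same receptor, rose by 2.21 and 3.03 (adjusted p = 2.11e-06 and 2.07e-07). IL1R1, that receptor, rose by 0.33 in MC26 and fell by 1.05 in M1B26 (adjusted p = 0.00478 and 1.84e-06). TLR4, the lipopolysaccharide receptor, rose by 1.81 and 2.99 from a mean of 1.05 CPM in CT (adjusted p = 8.97e-05 and 1.72e-06). TNF had 8 counts in all libraries together and IL17A had 0, both picked out after their values were seen. IL17RE, a receptor subunit for IL-17C, averaged 12.3 CPM in CT, 2.93 CPM in MC26 and 12.4 CPM in M1B26. It fell by 2.07 on the log2 scale in MC26 (adjusted p = 9.43e-06) and, like CXCL16, was lowest in that line.

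The list of NF-kB and AP-1 subunits and regulators also held other transcription factors: CEBPB, CEBPD, EGR1, HIF1A and STAT3. All 21 genes were tested, with medians of 0.34 and 0.45 on the log2 scale. In MC26 12 rose and 1 fell, against 18.8% and 19.9% of all tested genes. In M1B26 16 rose and 1 fell, against 25.2% and 23.7% of all tested genes. The gene that fell was EGR1 in both lines. HIF1A rose in both lines, and CEBPB and STAT3 rose in M1B26. TNFAIP3, an NF-kB target that encodes the feedback inhibitor A20, had 11.6, 11.1 and 11 CPM in CT, 34.1, 43.0 and 38.5 in MC26, and 53.1, 42.5 and 48.3 in M1B26. It rose by 1.78 and 2.09 (adjusted p = 1e-06 and 2.07e-07 by edgeR), and unlike CXCL1 its MC26 and M1B26 ranges overlapped. NFKBIZ, whose product acts with NF-kB at a set of secondary target genes, rose by 1.17 and 1.77 (adjusted p = 0.000237 and 8.76e-06). Of the AP-1 genes, JUNB rose by 1.67 in MC26 and 1.48 in M1B26 (adjusted p = 4.69e-06 and 7.17e-06 by edgeR). FOSL1 rose by 1.58 in MC26 and 1.0 in M1B26 (adjusted p = 0.000156 and 0.0019). FOS was 0.99 higher and JUN 0.99 lower on the log2 scale in M1B26 than in MC26 (adjusted p = 0.00173 and 0.00206). The activity of these factors was not measured.

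Leukocyte transcripts were checked because several of the members are also made by leukocytes. Summed over 9 markers, they ran from 19.6 to 25.7 CPM in CT, 41.4 to 51.7 in MC26 and 62.6 to 84.7 in M1B26, the order of the ELR ligands. CD14, CD68 and CSF1R had over 3 counts in every library. Means in CT, MC26 and M1B26 were 9.08, 13.2 and 38.5 CPM for CD14 and 8.96, 22.5 and 26.7 CPM for CD68. For CSF1R they were 5.51, 9.83 and 5.4 CPM, which is not the order of the ELR ligands. CD14 rose in M1B26 and was not called in MC26 (adjusted p = 3.75e-05 and 0.101 by edgeR). CD68 rose in both lines, and CSF1R rose in MC26 only. PTPRC, which encodes the common leukocyte antigen CD45, had at most 2 counts in any library, and CD3E and TYROBP had 0 in all 9. The sums of the other marker lists did not follow that order: 7 fibroblast markers summed to 37.4 to 37.8, 17.1 to 56.8 and 28.5 to 39.7 CPM, with THY1 at 0 counts, and 5 endothelial markers to 8.15 to 8.26, 2.19 to 3.76 and 3.65 to 6.59 CPM. Of 4 fibroblast markers tested, 2 rose and 0 fell in M1B26 against CT by edgeR, where 25.2% of tested genes rose and 23.7% fell. In MC26 against CT 0 of the 4 were called. The 2 that rose in M1B26 were COL1A1, a collagen gene, and LUM, which encodes lumican (adjusted p = 0.000163 and 7.88e-06). Means in CT, MC26 and M1B26 were 7.73, 9.74 and 15.4 CPM for COL1A1 and 0.108, 0.128 and 5.11 CPM for LUM. DCN, with the largest part of the sum in CT, had means of 29, 22.9 and 14 CPM (adjusted p = 0.129 in M1B26). PDGFRB had means of 0.738, 0.511 and 0.489 CPM (adjusted p = 0.147 in M1B26). COL1A2 and COL3A1 had at most 1 count in any library. These markers were named after their values were seen, and their part in the chemokine levels was not tested.

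The genes with profiles most like those of CXCL1 and CCL20 were sought among 10631 genes, by the root mean square (RMS) difference between log2(CPM + 0.5) values centred on each gene's mean over the 9 libraries. For CXCL1 these were MME, which encodes the cell-surface peptidase CD10 (RMS difference 0.23), STC1, which encodes the hormone stanniocalcin-1 (0.33), and SLC16A9, a monocarboxylate transporter gene (0.33). MME had 6.53, 8.34 and 6.14 CPM in CT, 6.19, 12.8 and 21.7 in MC26, and 44.2, 51.6 and 43.8 in M1B26. Its MC26 libraries thus lay in the same order as those of CXCL1, with replicate 1 lowest, and in MME that library fell within the CT range.
For CCL20 the nearest were TM4SF19, a tetraspan membrane protein gene (0.28), EREG, which encodes the EGF receptor ligand epiregulin (0.29), and HAS3, a hyaluronan synthase gene (0.29). EREG had 20.7, 27.4 and 21.6 CPM in CT, 49.7, 50.4 and 43.6 in MC26, and 100, 92.3 and 107 in M1B26. The 9 libraries form 3 groups by line, and the points of a line share that line, so no p is given for these likenesses.

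**Figure D5:**
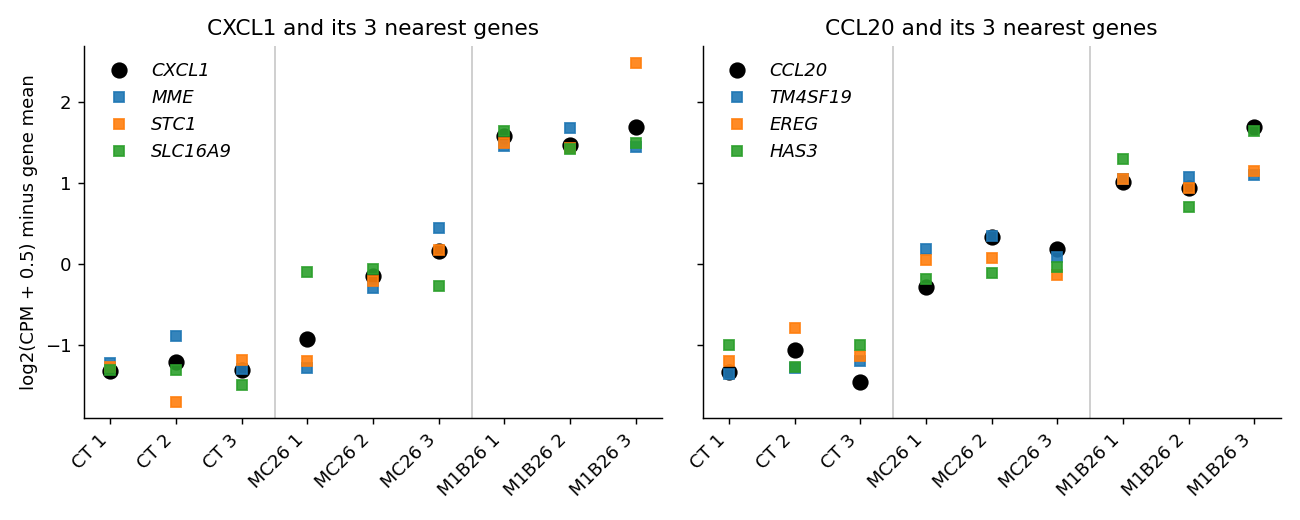
Log2(CPM + 0.5) minus each gene's mean over the 9 libraries (vertical axis) for CXCL1 (left) and CCL20 (right) in black and the 3 genes nearest to each in colour, with a point per library and grey lines between the cell lines. MME follows CXCL1 with an RMS difference of 0.23, and M1B26 replicate 3 is the highest library of CXCL1, STC1, CCL20, TM4SF19, EREG and HAS3.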

How the data were processed

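The authors deposited 1 table of raw counts by gene symbol, made from paired-end reads that, per their methods, were aligned to GRCh38 with STAR 2.7.3a. Their methods also name Salmon 1.1.0, yet the deposited counts hold whole numbers only and list non-coding genes too. Which program counted the reads, its strand setting and how it handled reads with several alignments are not given in the sources used here. Groups and replicate numbers came from sample titles. Independent cultures are stated, and library batches are not.

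Counts were analysed with edgeR 4.0.16 in R 4.3.3 (filterByExpr with a minimum count of 10, TMM, quasi-likelihood fit of all 9 libraries with the line as its term, 2-sided, Benjamini-Hochberg over 15717 genes). Genes with an adjusted p under 0.05 were called, and "rose" and "fell" refer to calls. SE was the absolute log2 fold change divided by the square root of F. Steps were tested on simulated data. Positions and lengths came from GENCODE 44, in which 36923 symbols (98.78% of counts) matched 1 gene. RMS comparisons were limited to genes averaging at least 5 CPM.

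The members and lists were chosen with earlier results of these data known. 1 leukocyte marker is not reported here. Named genes were the members, their receptors, ADAM10, ADAM17, and up to 4 called genes per list and comparison with the highest absolute log2 fold change and a mean of at least 1 CPM, drawn on where they bear on the members. Alternatives to this fit comprised RLE factors, total counts, DESeq2 1.42.0, a replicate block, fits of 6 libraries, filters set to none or to an average of 50 counts, a threshold of 0.01, leaving out each library, and levels rescaled to the sum over genes with a length. Ratios were tested with scipy 1.17.1 in Python 3.11.15.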

Additional observations from a re-analysis of the deposited data

Results flagged for a closer look

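For 6 members the change from CT differed between the derived lines, by the edgeR contrast of M1B26 with MC26, which equals the difference between their changes. The change in M1B26 minus that in MC26, on the log2 scale, was 1.83 for CXCL1 (SE 0.20), 1.38 for CXCL2 (SE 0.11), 0.88 for CXCL3 (SE 0.15), 1.79 for CXCL8 (SE 0.16), 1.17 for CCL20 (SE 0.21) and 1.20 for CXCL16 (SE 0.17), with adjusted p between 8.28e-06 and 0.00142. In each of these, all 3 M1B26 libraries lay above all 3 MC26 libraries. For CXCL1, CXCL2, CXCL3, CXCL8 and CCL20 this was a larger rise in M1B26, and for CXCL16 it was a fall called in MC26 beside a log2 fold change of -0.29 (adjusted p = 0.165) in M1B26. Groups of 3 libraries were too small for a test of single outlying libraries.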

How the results depend on the processing

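The numbers of members called (6 of 7 in MC26 and 5 of 7 in M1B26 against CT, and 6 of 7 between the derived lines) were the same under each alternative that was run. With the replicate number as a block the counts were also 6, 5 and 6, no member's call changed, and 5879, 7513 and 6009 genes were called in all against 6081, 7688 and 6215 without it. Deviations of libraries with the same number correlated at -0.137 to 0.21 over genes, so the numbers were not taken to pair the cultures. The one value that changed sign was that of CCL28 between M1B26 and MC26, at -0.03 without MC26 replicate 2, against 0.05 with all libraries and a range of -0.03 to 0.13 over single omissions, and it passed the test under no setting that was run. Leaving out 1 library at a time moved CXCL1 in MC26 from 0.80 to 1.31 and CXCL8 in MC26 from 0.60 to 0.96, with an adjusted p of at most 0.0236 by edgeR. Levels rescaled to the sum over all genes with a length were 3.63 to 4.17 times those in CPM per kilobase. This rescaling multiplies every gene of a library by the same factor. It could not change the order of the members within a library and is no check of their ranks. The detection floor was 3 counts in a library, and 1 count in the shallowest library stood for 0.0437 CPM, so CXCL5, CXCL6 and CX3CL1 transcripts below that floor were not detectable at this depth.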
